A study of Homo sapiens with 8 samples.

Results

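The genes of plasminogen activation and the clade B serpins were described across 8 Affymetrix arrays of HMLE, a cell line derived from human mammary epithelium and immortalized in culture. Members were the probe sets whose symbol in the naming table was PLAT, PLAU or PLAUR, or SERPINB with a member number. This gave 15 probe sets of 54613 on the array without controls, and 11 genes of 8925 with a name: PLAT, SERPINB1, SERPINB2, SERPINB3, SERPINB5, SERPINB6, SERPINB7, SERPINB8, SERPINB11, SERPINB12 and SERPINB13. Of the 3 genes named outright in the rule, 1, PLAT, was listed there, and PLAU and PLAUR were not analysed here. CD24hi cells were sorted for high surface CD24, while MSP1, MSP2 and MSP3 are each a mesenchymal subpopulation derived from HMLE. All 4 groups were grown in MEGM medium and had 2 arrays each, a and b. The labels name no treatment or genetic change that separates the groups, and do not say how the subpopulations were isolated. All groups come from 1 cell line, and whether the pair of arrays in a group stands for separate cultures is not stated, so p-values cover the spread between arrays alone, which could be technical.

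Plasminogen is a circulating zymogen that tissue-type plasminogen activator (PLAT) and urokinase (PLAU) cleave into plasmin, a broad serine protease that dissolves fibrin and degrades pericellular matrix. SERPINB2 encodes an inhibitor of urokinase that stays largely inside the cell. Serpins trap their target protease by presenting a bait loop that inserts into the serpin body after cleavage. Clade B serpins mostly lack a classical secretion signal and act in the cytoplasm and nucleus, and several are abundant in keratinocytes and other stratified epithelia.

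Promoter windows are shown for 4 clade B genes that stand for different outcomes between CD24hi and the MSP groups: SERPINB2 and SERPINB13, which were under 32 signal units on all 6 MSP arrays, SERPINB1, which fell but stayed above that limit, and SERPINB5, which stayed far above that limit on all 8 arrays. Each window runs from 250 bases before to 50 after the start in RefSeq, build GRCh38.p14, 5′ to 3′ on the gene's own strand. Capitals mark matches, on either strand, to a TATA box (TATAAA), an AP-1 element (TGANTCA), an E-box of the kind ZEB and SNAI factors bind (CACCTG) and a GC box (GGGCGG).
SERPINB2, chr18:63887455-63887754, plus strand: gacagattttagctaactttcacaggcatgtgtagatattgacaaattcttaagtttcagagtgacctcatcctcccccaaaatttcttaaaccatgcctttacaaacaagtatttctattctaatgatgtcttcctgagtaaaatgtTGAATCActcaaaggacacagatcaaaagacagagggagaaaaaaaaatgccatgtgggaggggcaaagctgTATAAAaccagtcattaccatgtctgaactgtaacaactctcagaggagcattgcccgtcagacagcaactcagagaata
SERPINB13, chr18:63587093-63587392, plus strand: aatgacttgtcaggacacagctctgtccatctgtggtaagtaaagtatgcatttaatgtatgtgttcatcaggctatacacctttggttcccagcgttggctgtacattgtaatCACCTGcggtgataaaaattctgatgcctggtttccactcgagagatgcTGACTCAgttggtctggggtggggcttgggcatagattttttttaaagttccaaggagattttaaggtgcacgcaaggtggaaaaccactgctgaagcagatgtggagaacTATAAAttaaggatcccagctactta
SERPINB5, chr18:63476708-63477007, plus strand: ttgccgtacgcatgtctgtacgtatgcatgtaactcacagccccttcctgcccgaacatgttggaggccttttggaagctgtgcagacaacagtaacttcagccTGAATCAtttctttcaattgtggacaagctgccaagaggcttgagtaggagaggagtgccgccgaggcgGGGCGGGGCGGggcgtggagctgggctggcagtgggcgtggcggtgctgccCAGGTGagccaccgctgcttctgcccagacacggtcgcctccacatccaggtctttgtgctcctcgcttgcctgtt
SERPINB1, chr6:2841814-2842113, minus strand: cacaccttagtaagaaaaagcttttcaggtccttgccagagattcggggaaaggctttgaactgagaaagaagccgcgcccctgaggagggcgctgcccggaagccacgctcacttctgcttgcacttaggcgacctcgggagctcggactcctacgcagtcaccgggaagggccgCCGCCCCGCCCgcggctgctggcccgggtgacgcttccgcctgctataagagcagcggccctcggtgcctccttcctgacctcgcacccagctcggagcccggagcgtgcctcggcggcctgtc

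In these letters SERPINB2 held a TATA box at -30 and an AP-1 match at -102, positions being those of the leftmost base relative to the start. SERPINB13 held an AP-1 match at -87, an E-box at -136 and a TATA box at 24, after the start. SERPINB5 had no TATA box, an AP-1 match at -146, an E-box at -26 and a pair of GC boxes that share bases, at -77 and -72. SERPINB1 held only GC boxes, at -74 and -69. Of 35116 windows of this length in the RefSeq table, 11.5% held the TATA box, 7.71% the AP-1 element, 20.6% the E-box and 45% the GC box. A match describes the letters of the window and is not a measured binding site. Windows of chromosome 8, where PLAT lies, were not used. A window was kept for 9 of the 11 genes, and those of SERPINB3, SERPINB6, SERPINB7, SERPINB8 and SERPINB12 are not printed. Over their windows, SERPINB8 and SERPINB12, which were not called, held TATA box and AP-1 matches, as did SERPINB7, which was called lower. SERPINB6, not called, held GC boxes and a TATA box, and SERPINB3, called lower, held no match. A link between matches and outcome was not tested.

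Signals are linear intensities, and a level is the geometric mean of a group. The median signal ran from 15.5 on CD24hi b to 20.2 on CD24hi a, and between 57.6% and 60.3% of probe sets lay under 32, a limit taken from earlier results on these arrays, below which signals are called dim. CD24, the sort marker, read 7575 and 3339 on the CD24hi arrays and 19.0 to 109 on the MSP arrays. The summed signal of 9 epithelial markers ran from 33871 to 46755 on CD24hi and from 2811 to 5680 on the MSP arrays, and 8 of the 9 fell. CDH1, EPCAM, ESRP1, RAB25 and CDH3 were at most 24.5 on every MSP array, while KRT14 read 2386 to 4831 there and was not called (adjusted p = 0.0677). The summed signal of 9 mesenchymal markers ran from 6769 to 9937 on CD24hi and from 33289 to 48788 on the MSP arrays, and 6 rose. CDH2, FN1 and VIM were not called by limma (adjusted p = 0.0807, 0.0649 and 0.534). VIM made up most of the CD24hi sum, at 7893 and 5940, and read 8002 to 11131 on the MSP arrays. Of 9 measured endothelial, blood and adipocyte markers none was called by limma, with 2 at an unadjusted p under 0.05, and their part in the results below was not tested. With whole populations on each array, fewer cells of a type and less RNA per cell cannot be told apart.

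Against CD24hi, the mean of the 3 MSP groups showed 5 of the 11 genes lower at a Benjamini-Hochberg adjusted p under 0.05 in limma, and none higher. The 5 were SERPINB1, SERPINB2, SERPINB3, SERPINB7 and SERPINB13, all of clade B. Among all named genes 5.25% were called lower and 3.78% higher. By probe set, 6 of 15 were lower and none was higher, beside 1.59% lower and 1.58% higher over the whole array. The median change of the 11 genes was -1.90 on the log2 scale, that of all probe sets 0.02 and that of all named genes -0.02. At an unadjusted p under 0.05, 6 of the 11 genes differed.

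The gene names come from a table that the authors opened with their own called probe sets and then continued in array order, and this bears on the counts. The probe sets of SERPINB1, SERPINB2, SERPINB3, SERPINB7 and SERPINB13 are listed through the authors' calls, so their difference from CD24hi is no independent evidence. All 5 were called lower here, and of all genes so listed 31.5% were. The other 6, PLAT, SERPINB5, SERPINB6, SERPINB8, SERPINB11 and SERPINB12, have probe sets in the part in array order. None of those 6 was called by limma, 1 of them (PLAT) had an unadjusted p under 0.05, and 0.823% of named genes listed in array order were called in either direction. That part lacks the probe sets already listed through the authors' calls. Finding few calls there was thus largely fixed in advance and is no independent evidence of likeness. Without overlap between the 2 CD24hi and the 6 MSP arrays, 1 of the 11 genes was higher and 7 were lower, beside 14.1% and 16.2% of all named genes. Among the 6 in array order, that 1 was higher (PLAT) and 2 were lower (SERPINB5 and SERPINB12).

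**Figure D1:**
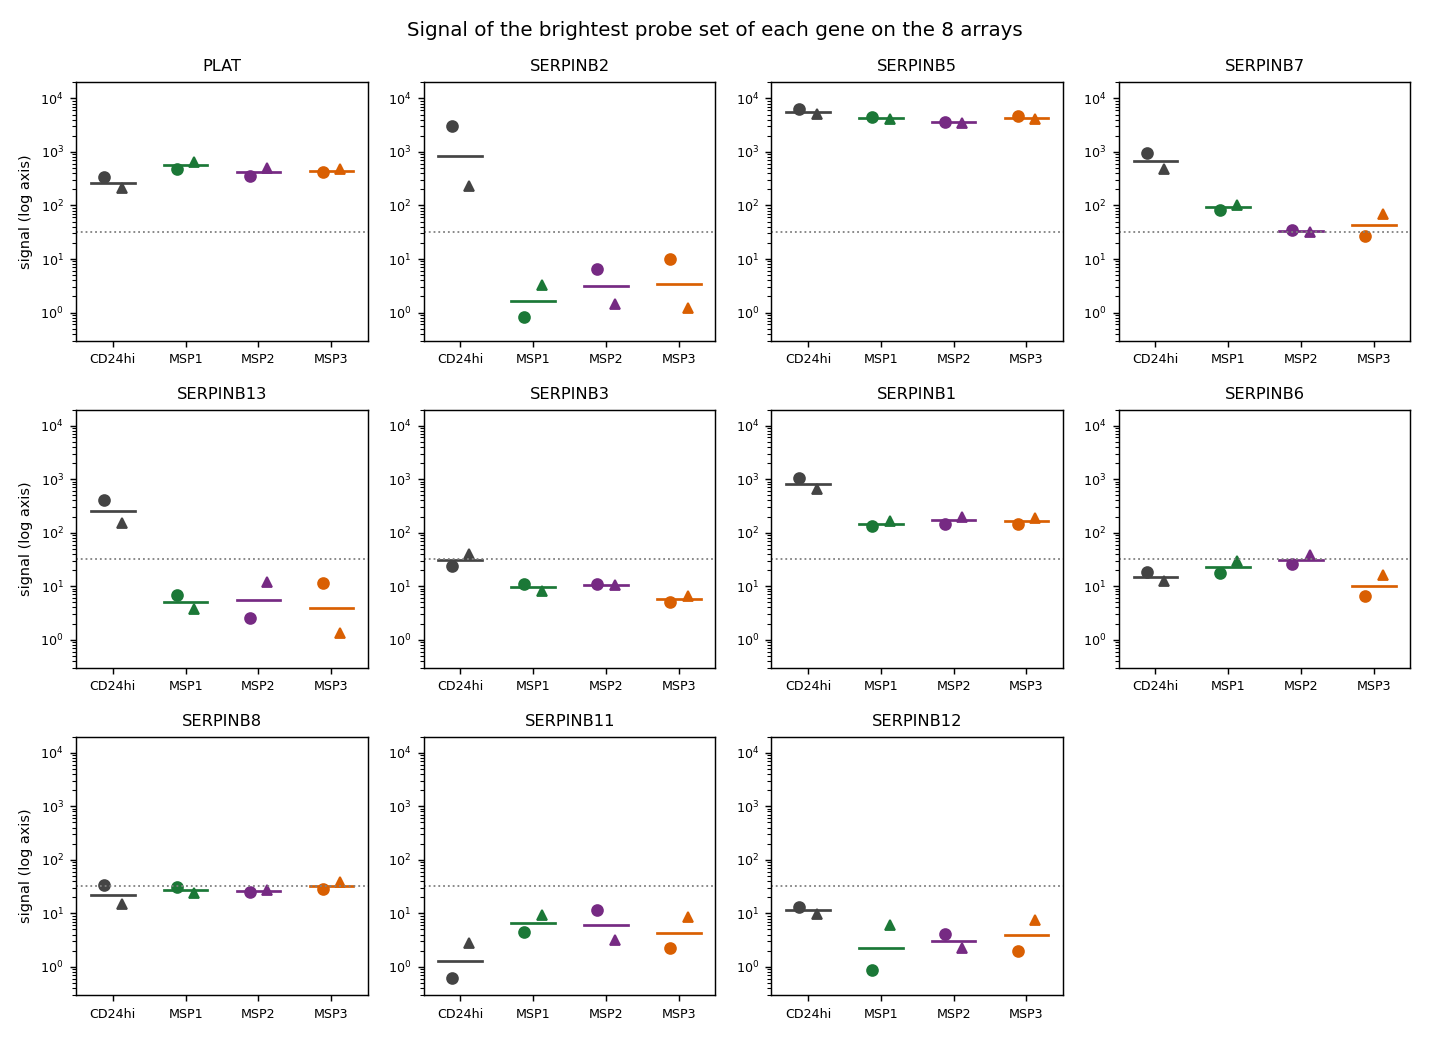
Signal of the brightest probe set of each gene (log axis) in the 4 groups; circles are array a, triangles array b, bars the geometric mean of the 2 arrays, and the dotted line marks 32. SERPINB2 and SERPINB13 sit under the dotted line on all MSP arrays, and SERPINB5 stays at or above 3540 on all 8 arrays.

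PLAT, the tissue-type activator, was measured by probe set 201860_s_at. It read 337 and 209 on CD24hi, 486 and 662 on MSP1, 356 and 512 on MSP2, and 417 and 485 on MSP3. Every MSP array was above both CD24hi arrays, but MSP2 a exceeded CD24hi a by little. The level was 477 over the MSP groups and 266 in CD24hi, a log2 difference of 0.85 ± 0.34 (SE), or 1.80-fold, with a 95% interval of 0.02 to 1.67. The unadjusted p was 0.0465 and the adjusted p 0.296, so the difference was not called. It ran from 0.50 to 1.19 when each array was left out in turn. By group the difference was 1.09 ± 0.42 in MSP1, 0.69 ± 0.42 in MSP2 and 0.76 ± 0.42 in MSP3.

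SERPINB2, the mostly intracellular urokinase inhibitor, was bright in CD24hi and dim in every MSP group. Probe set 204614_at, the one listed for the gene, read 3025 and 231 on CD24hi, 0.826 and 3.26 on MSP1, 6.63 and 1.45 on MSP2, and 9.98 and 1.22 on MSP3. No MSP array reached 10, and the lower CD24hi array was at 231. The level fell from 836 to under the dim limit, at least 26.1-fold, with a fitted log2 change of -8.32 ± 1.34 and an adjusted p of 0.0329. The size of the CD24hi level is loosely fixed: arrays a and b lay 3.71 log2 units apart, a gap that 0.311% of probe sets with a mean of at least 32 reached. The fitted change was -6.47 without CD24hi a and -10.18 without CD24hi b, and all 8 fits that left out 1 array lost the call, with adjusted p from 0.0522 to 0.126. With signals raised to a floor of 32 the change was -4.71 (adjusted p = 0.182).

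SERPINB7, also called megsin, is a clade B serpin whose loss underlies a palmoplantar keratosis. Its probe set 206421_s_at read 948 and 475 on CD24hi, 82.1 and 103 on MSP1, 34.7 and 31.9 on MSP2, and 27.0 and 69.8 on MSP3. Every MSP array was at or under 103, well below the lower CD24hi array. The level fell from 671 to 51.0, by 3.72 ± 0.47 on the log2 scale or 13.1-fold (adjusted p = 0.0162). By group it fell by 4.33 on the log2 scale or 20.1-fold in MSP2 (adjusted p = 0.0298) and fell by 3.95 or 15.4-fold in MSP3 (adjusted p = 0.0364), while MSP1, with a change of -2.87, was not called (adjusted p = 0.0868). Leaving out 1 array at a time kept the call of the mean contrast in 2 of 8 fits, with adjusted p from 0.0244 to 0.0758.

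SERPINB13, or hurpin, an inhibitor of cysteine cathepsins found in skin and oral epithelium, was measured by 4 probe sets. The brightest, 217272_s_at, read 414 and 152 on CD24hi, 6.97 and 3.72 on MSP1, 2.55 and 11.9 on MSP2, and 11.7 and 1.31 on MSP3. All MSP arrays were dim and both CD24hi arrays were not. The level fell from 250.5 to under the limit, at least 7.83-fold, with a fitted change of -5.71 ± 1.02 (adjusted p = 0.0446). Probe set 211361_s_at read 265 and 85.6 on CD24hi and at most 2.20 on the MSP arrays, and fell at least 4.70-fold, with a fitted change of -8.03 ± 0.86 (adjusted p = 0.00922). The probe sets 211362_s_at, at 70.5 and 55.0 on CD24hi, and 216258_s_at, at 47.3 and 47.6, were dim on all MSP arrays and were not called (adjusted p = 0.0632 and 0.104). For the brightest probe set, 1 of 8 fits with an array left out kept the call (adjusted p from 0.0388 to 0.178), and its change was -4.99 without CD24hi a and -6.43 without CD24hi b. With a floor of 32 its change of -2.97 was not called (adjusted p = 0.0674).

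SERPINB1, an inhibitor of neutrophil elastase and related serine proteases, fell to a level that was still measured. Its probe set 212268_at read 1044 and 644 on CD24hi, 132 and 164 on MSP1, 148 and 196 on MSP2, and 145 and 189 on MSP3. The 6 MSP arrays lay between 132 and 196, far below both CD24hi arrays. The level fell from 820.1 to 161, by 2.35 ± 0.33 on the log2 scale or 5.10-fold (adjusted p = 0.0220). MSP1 was called on its own, at 5.56-fold lower (adjusted p = 0.0484), and MSP2 (-2.27, adjusted p = 0.0670) and MSP3 (-2.31, adjusted p = 0.0614) were not. Without any 1 of the 8 arrays the adjusted p was 0.0508 to 0.0743.

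SERPINB3, which inhibits papain-like cysteine proteases and is known as squamous cell carcinoma antigen, was measured near the dim limit. Probe set 209719_x_at read 24.3 and 40.3 on CD24hi, 11.2 and 8.21 on MSP1, 10.8 and 10.4 on MSP2, and 5.04 and 6.59 on MSP3. The 2 groups of arrays did not overlap, but 1 array of the 8 was above 32. It was called lower (fitted change -1.90 ± 0.33, adjusted p = 0.0411), and no fold is given because both levels, 31.3 and 8.36, were dim. The call was lost with an intensity trend in the variance (adjusted p = 0.0608), quantile normalization (0.0572), the mean of a gene's probe sets (0.0531), a floor of 32 (0.258) and in all 8 fits with an array left out (adjusted p from 0.0567 to 0.125). SERPINB3 and its neighbour SERPINB4 are near-identical in sequence, so the signal may hold both.

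SERPINB5, or maspin, a clade B serpin without known protease-inhibiting activity that is abundant in basal mammary epithelium, was bright in every group. Its probe set 204855_at read 6252 and 5140 on CD24hi, 4556 and 4176 on MSP1, 3634 and 3540 on MSP2, and 4721 and 4056 on MSP3. All 6 MSP arrays were below both CD24hi arrays, by a small margin. The level was 4091 against 5669, a log2 difference of -0.47 ± 0.26 or 1.39-fold lower, with a 95% interval of -1.11 to 0.17 (adjusted p = 0.449), so the difference was not called. Its second probe set, 1555551_at, read 82.7 and 14.9 on CD24hi and 22.1 to 38.5 on the MSP arrays, which overlapped (difference -0.27 ± 0.65). The MSP signal of SERPINB5 stands beside epithelial markers of which CDH1 and EPCAM were at most 23.7 and KRT14 at least 2386 on the same arrays.

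**Figure D2:**
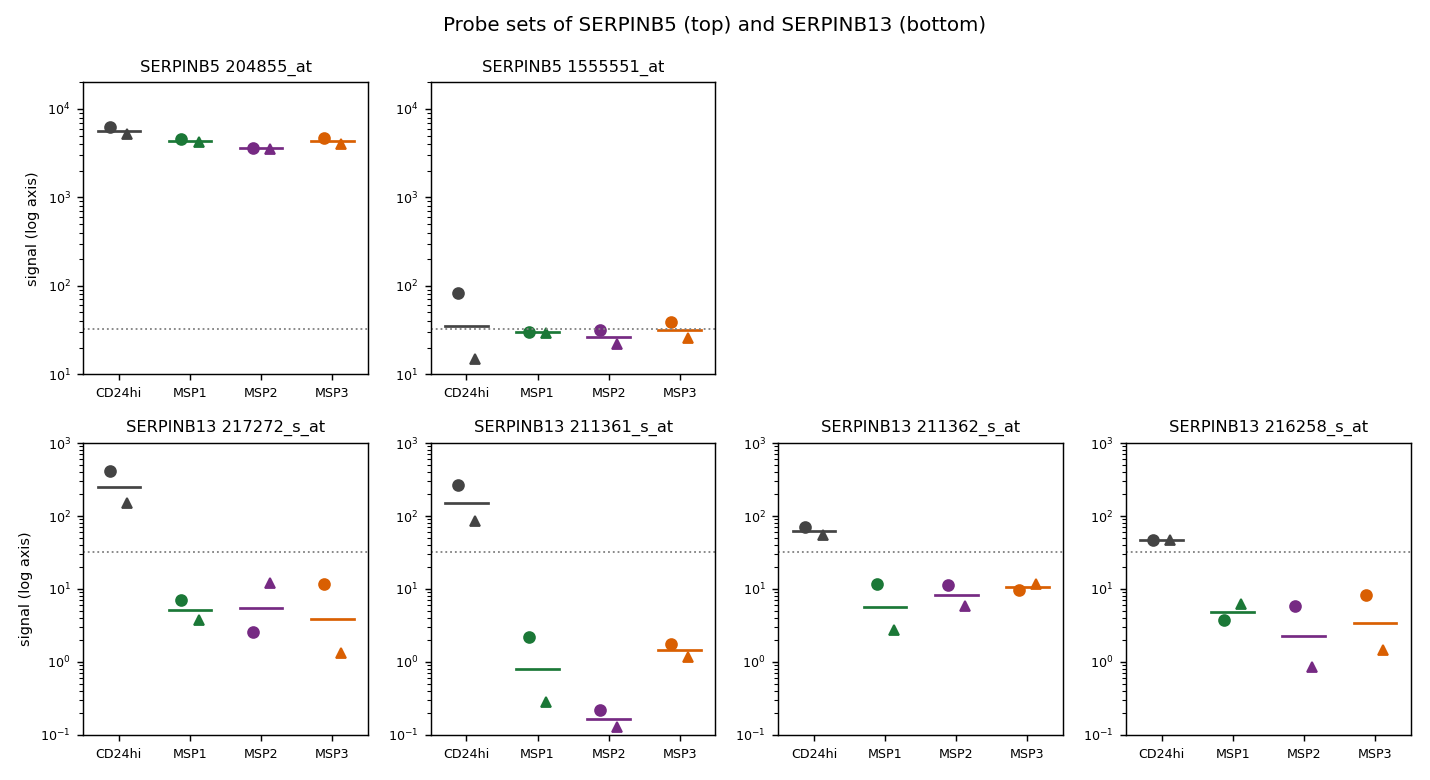
Signal (log axis) of the 2 SERPINB5 and 4 SERPINB13 probe sets in the 4 groups; circles are array a, triangles array b, bars the geometric mean, and the dotted line marks 32. SERPINB5 204855_at stays at or above 3540 while 1555551_at lies near the dotted line, and all 4 SERPINB13 probe sets are under 32 on every MSP array.

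The remaining 4 genes were dim in both levels and none was called. SERPINB6, an inhibitor of cathepsin G and trypsin-like proteases, read 12.3 to 18.3 on CD24hi and 6.53 to 38.5 on the MSP arrays (probe set 1556950_s_at, difference 0.37 ± 0.47, adjusted p = 0.762). SERPINB8, which inhibits furin, read 15.2 and 33.2 on CD24hi and 24.0 to 37.7 on the MSP arrays (1554616_at, 0.35 ± 0.38, adjusted p = 0.717). SERPINB11 read 0.607 and 2.84 on CD24hi and 2.22 to 11.3 on the MSP arrays (1552463_at, 2.07 ± 0.89, adjusted p = 0.324). SERPINB12, an inhibitor of trypsin-like proteases, read 9.86 and 13.1 on CD24hi and 0.857 to 7.63 on the MSP arrays (1553057_at, -1.92 ± 0.87, adjusted p = 0.348). These probe sets may not be the brightest on the array for their genes.

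**Figure D3:**
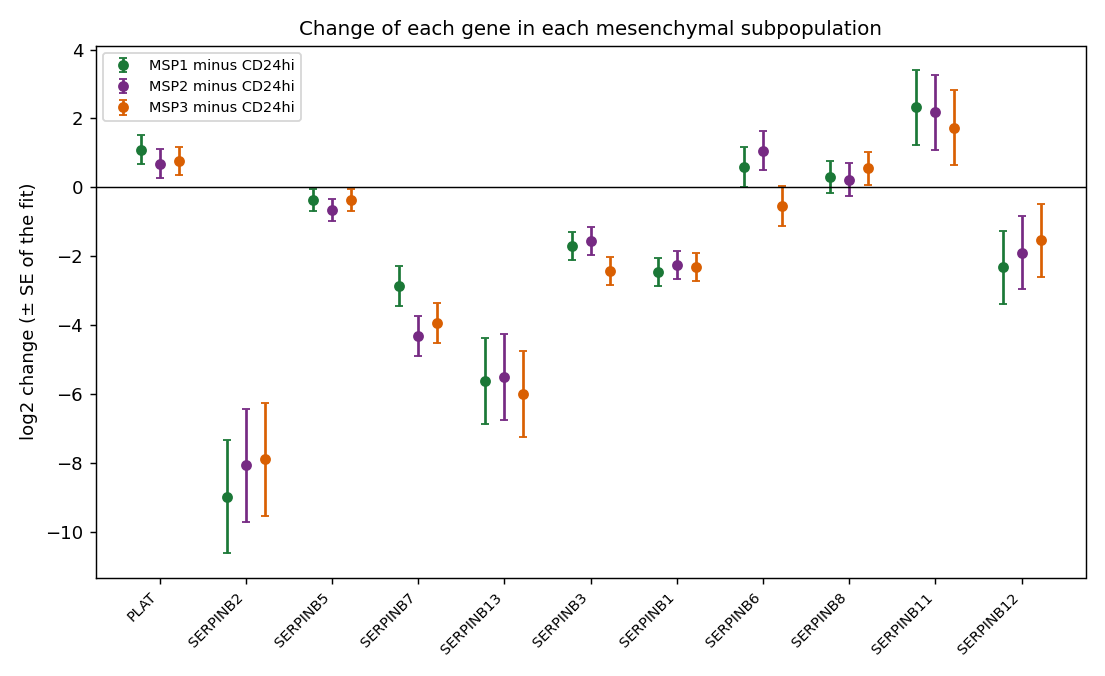
Log2 change of each gene's brightest probe set in MSP1, MSP2 and MSP3 against the same 2 CD24hi arrays, with bars for the SE of the fit. The 3 subpopulations lie close together for SERPINB1 (-2.47 to -2.27) and spread most visibly for SERPINB7 (-4.33 to -2.87) and SERPINB6.

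Each subpopulation on its own called fewer genes than the mean of the 3. By brightest probe set, SERPINB1 was the 1 of 11 called lower in MSP1, where 3.32% of named genes were. SERPINB7 was the 1 called in MSP2 (beside 2.87%) and in MSP3 (beside 2.7%). The less bright SERPINB13 probe set 211361_s_at was also called lower by limma in MSP1 (adjusted p = 0.0300), MSP2 (0.0181) and MSP3 (0.0443). The brightest SERPINB13 probe set was called in none of them (adjusted p = 0.109, 0.122 and 0.0963). SERPINB2 missed the threshold in each, with changes of -8.99, -8.07 and -7.91 and adjusted p of 0.0651, 0.0933 and 0.0959 in MSP1, MSP2 and MSP3. These comparisons share the CD24hi arrays, so they do not repeat each other independently.

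Among the subpopulations themselves no member was called by limma in any of the 3 pairs, and the share of named genes called was 0% in each (0 of 8925). At an unadjusted p under 0.05 there was 1 gene between MSP1 and MSP2, none between MSP1 and MSP3, and 1 between MSP2 and MSP3. SERPINB7 was higher on both MSP1 arrays than on either MSP2 array, at levels of 92.0 and 33.3, a difference of 1.47 ± 0.58 (unadjusted p = 0.0445, adjusted p = 1.00). SERPINB6 read 25.5 and 38.5 on MSP2 and 6.53 and 16.1 on MSP3, a difference of 1.61 ± 0.57 at dim levels (unadjusted p = 0.0305, adjusted p = 0.996). The pair differences of PLAT were 0.41, 0.34 and -0.07, each with an SE of 0.42.

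**Figure D4:**
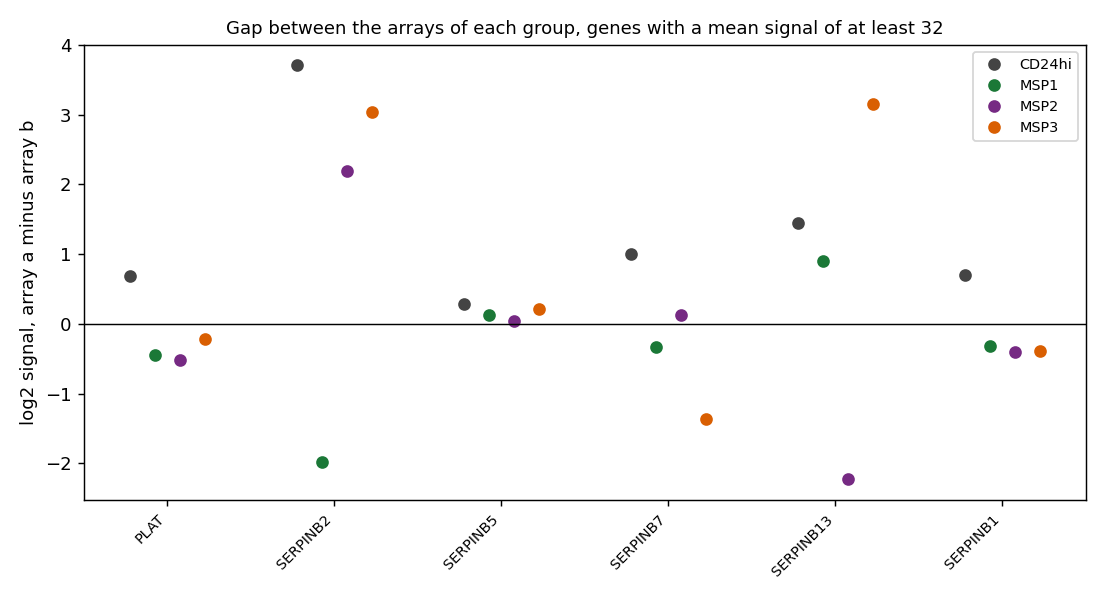
Log2 signal of array a minus array b in each group for the 6 genes with a mean signal of at least 32. The CD24hi points are above 0 for all 6 genes, and the widest, 3.71, is SERPINB2; the MSP points of SERPINB2 and SERPINB13 come from dim signals.

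CD24hi array a was above CD24hi array b for each of the 6 genes with a mean of at least 32. The gap was 0.28 log2 units for SERPINB5, 0.69 for PLAT, 0.70 for SERPINB1, 1.00 for SERPINB7, 1.45 for SERPINB13 and 3.71 for SERPINB2. In either direction, 74.9% of probe sets with such a mean had a gap at least as wide as that of SERPINB5. That share was 44.2% for PLAT, 43.7% for SERPINB1, 27.1% for SERPINB7, 12.1% for SERPINB13 and 0.311% for SERPINB2. On the MSP arrays PLAT and SERPINB1 were lower on array a than on array b in all 3 groups, with gaps of -0.52 to -0.22. What separates the 2 CD24hi arrays was not tested.

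By position, 8 of the measured clade B genes lie in a row on chromosome 18, where RefSeq orders them as SERPINB5, SERPINB12, SERPINB13, SERPINB4, SERPINB3, SERPINB11, SERPINB7, SERPINB2, SERPINB10 and SERPINB8. SERPINB4 and SERPINB10 were not analysed here. The called falls (SERPINB13, SERPINB3, SERPINB7 and SERPINB2) are all genes listed through the authors' calls. SERPINB5 (-0.47), SERPINB12 (-1.92), SERPINB11 and SERPINB8 (0.35), from the part in array order, were not called. SERPINB11, between SERPINB3 and SERPINB7, had a fitted difference of 2.07 at dim levels. SERPINB1 and SERPINB6 lie on chromosome 6, on either side of SERPINB9. SERPINB1, listed through the authors' calls, fell, while SERPINB6 was dim in both levels, so whether it fell cannot be said. PLAT lies on chromosome 8.

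**Figure D5:**
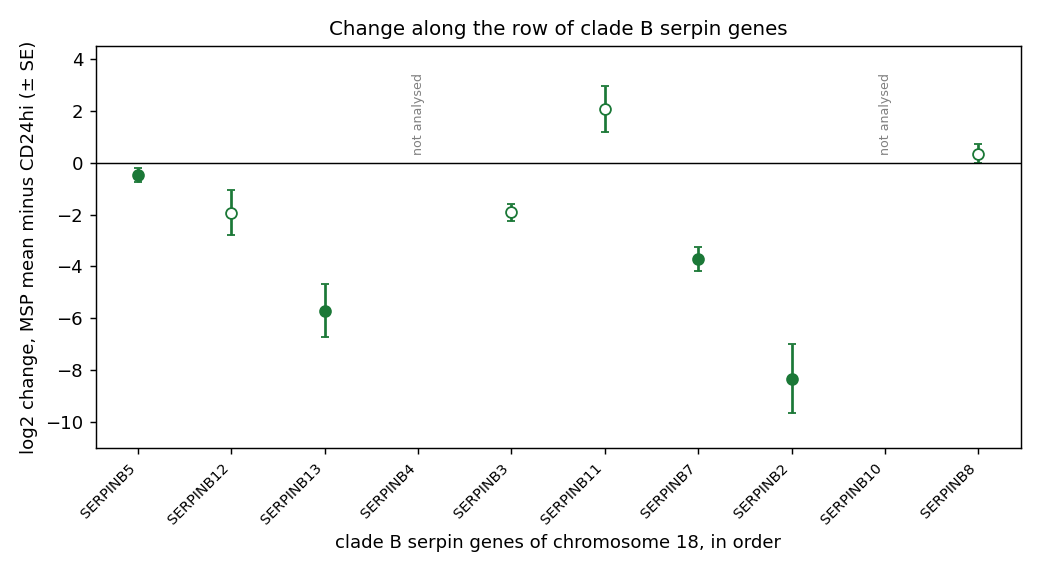
Log2 change of the MSP mean against CD24hi (bars, SE of the fit) for the clade B serpin genes of chromosome 18 in their order; open points are dim in both levels, and SERPINB4 and SERPINB10 were not analysed. SERPINB13, SERPINB3, SERPINB7 and SERPINB2 are the called genes; the MSP levels of SERPINB13, SERPINB3 and SERPINB2 are dim, so the sizes of their changes have no order.

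The authors' deposited table gives each MSP group against CD24hi for the same 15 probe sets. In the authors' deposited table the sign was that of the present fit for 15, 15 and 14 probe sets in MSP1, MSP2 and MSP3, and its sizes were a median 0.855, 0.870 and 0.810 of the present ones. In the authors' deposited table SERPINB2 changed by -6.31, -6.37 and -6.40 on the log2 scale, with p of 0.0245, 0.0260 and 0.0232. PLAT differed by 0.99, 0.63 and 0.66 in the authors' deposited table, with p of 0.309, 0.586 and 0.517. The header of the authors' deposited table does not say whether these p-values are adjusted.

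Other genes of the pathway were counted in 6 lists. Of genes for plasmin substrates and surface assembly, which includes plasminogen receptors and matrix substrates, 13 of 20 were measured, none rose and 1 fell by limma, with 4 at an unadjusted p under 0.05 and a median of 0.14. Of all named genes 5.25% were called lower. The 1, listed through the authors' calls, was KRT8, an epithelial keratin that also binds plasminogen at the cell surface, which fell 31.1-fold from 1877 to 60.2 (adjusted p = 0.00367). It is also 1 of the 9 epithelial markers above.

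Of inhibitors of plasmin and thrombin and coagulation genes of the cell surface, 10 of 15 were measured, 3 rose and none fell, beside 3.78% of all named genes called higher, and the median was -0.40, opposite in sign to the calls. At an unadjusted p under 0.05 in limma, 7 of the 10 differed. Of the 10, 4 are listed through the authors' calls, F2RL2, TFPI and F2R among them, so their difference is no independent evidence. F2RL2, a protease-activated receptor of the thrombin group, read 6.27 and 6.68 on CD24hi and 235 to 863 on the MSP arrays, and rose at least 13.9-fold (adjusted p = 0.00233). TFPI, the inhibitor of the tissue factor pathway, read 68.1 and 27.2 on CD24hi and 1175 to 2349 on the MSP arrays, and rose 39.2-fold (adjusted p = 0.00529). Its log2 change of 5.29 was 5.96 without CD24hi a and 4.63 without CD24hi b. F2R, the main thrombin receptor, read 539 and 658 on CD24hi and 1370 to 2354 on the MSP arrays, and rose 2.93-fold (adjusted p = 0.0485); leaving out any 1 array ended its call (adjusted p from 0.10 to 0.137), as did the mean of its probe sets (0.0831).

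Of serpins of other clades, 6 of 13 were measured, none rose and 1 fell, beside 5.25% of all named genes called lower, with 1 at an unadjusted p under 0.05 and a median of -0.22. The 1, itself listed through the authors' calls, was SERPINA1, the elastase inhibitor antitrypsin, which read 510 and 405 on CD24hi and 20.8 to 46.2 on the MSP arrays and fell 12.4-fold (adjusted p = 0.00546). Of cathepsins and granzymes that clade B serpins are known to inhibit or that belong to the same families, 10 of 15 were measured, none rose and 2 fell, beside the same 5.25%, with a median of -0.60. Of the 10, 6 had an unadjusted p under 0.05 in limma, and 3 are listed through the authors' calls, CTSC and CTSV among them. CTSC, which activates granule serine proteases, fell 9.84-fold from 4681 to 476 (adjusted p = 0.0278). CTSV, a cysteine cathepsin of squamous epithelium and thymus, fell 6.96-fold from 3237 to 465 (adjusted p = 0.0231). Each kept its call in 1 of 8 fits with an array left out. A floor of 32 ended both calls (adjusted p = 0.0927 and 0.0654). The change of CTSV was -2.19 without CD24hi a and -3.40 without CD24hi b, and with the probe sets of CTSV averaged its change was -0.27.

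Of pericellular serine proteases of epithelium and their inhibitors, 19 of 27 were measured, none rose and 10 fell, with a median of -3.99 beside -0.02 for all named genes and 5.25% of those called lower. Of these 19 genes, 15 had an unadjusted p under 0.05 in limma, and 11 are represented by probe sets that the naming table lists through the authors' calls. KLK10, KLK8, ST14 and SPINT1 are among the 11. Of all genes so listed 31.5% were called lower. As with the other genes so listed above, their difference from CD24hi is no independent evidence. KLK10, a kallikrein-related peptidase, read 4671 and 577 on CD24hi and at most 1.71 on the MSP arrays and fell at least 51.3-fold (adjusted p = 0.00404). Its call was lost with a floor of 32 (adjusted p = 0.0805), and its fitted change of -10.15 was -8.64 without CD24hi a and -11.66 without CD24hi b. KLK8, another kallikrein-related peptidase, fell at least 15-fold (adjusted p = 0.00573). ST14, the membrane protease matriptase, read 830 and 413 on CD24hi and at most 17.4 on the MSP arrays and fell at least 18.3-fold (adjusted p = 0.00432). SPINT1, its Kunitz-type inhibitor, fell at least 28.3-fold (adjusted p = 0.0111), a call lost without CD24hi a (adjusted p = 0.0712) and without CD24hi b (adjusted p = 0.0721). Of signalling genes upstream or downstream of PLAU, 14 of 24 were measured and none was called by limma, with 1 at an unadjusted p under 0.05 and a median of -0.20. The brightest, HIF1A, the oxygen-regulated transcription factor, read 4551 and 3727 on CD24hi and 4978 to 6044 on the MSP arrays (0.46 ± 0.26, adjusted p = 0.452).

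Likeness of pattern was described with Pearson's r of log2 signal over the 8 arrays, among 3738 named genes that reached 4 times the dim limit in at least 1 group. The arrays share the split between CD24hi and the MSP groups, which raises every r of a gene that follows it. SERPINB2 was most like CMTM7 (0.990), MAST4 (0.989) and HR (0.985), a corepressor of skin and hair, and 287 genes had r of at least 0.9. Their CD24hi arrays were at 1104 and 734, 710 and 302, and 360 and 187, with a above b. Those of SERPINB2 lay wider apart, at 3025 and 231. The MSP levels of CMTM7, MAST4 and HR were 414, 82.0 and 42.1, above the dim limit, while SERPINB2 was dim on every MSP array. PLAT was most like SLC37A4 (0.976), a transporter of phosphorylated glucose, SDF2 (0.965) and ZWINT (0.959), a kinetochore protein, and 46 genes had r of at least 0.9.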

How the data were processed

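Biotin-labelled RNA was hybridised to 8 single-colour arrays, 2 per group, per the labels. The deposited values are linear signal intensities per probe set; the authors scaled them, since every array has a 2% trimmed mean of 150.02. The submitters' processing notes name Affymetrix Expression Console and limma; for the algorithm and genome build, nothing is given in the sources used here. The authors' table holds a log2 change and a p-value for each MSP group against CD24hi, per the file headers, and is the only source of gene names. It lists 16382 probe sets, of which the first 2256 have an authors' p-value of at most 0.05 in all 3 comparisons, and the rest follow in array order to position 14644.

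The log2 of each signal, without an offset, was fitted in limma 3.58.1 (R 4.3.3) as 4 group means on the 8 arrays, with 4 residual and 2.08 prior degrees of freedom, two-sided. Adjusted p-values are Benjamini-Hochberg over 54613 probe sets, after 62 controls were left out, and a call is an adjusted p under 0.05. A gene is represented by its brightest named probe set by mean over the 8 arrays. Where the lower level was under 32, the fold is the brighter level over 32 ("at least"), and where both were, none is given. Results of 1 further gene that the rule covers are not reported here. Every other member is named; of each other list, at most 4 called rises and 4 called falls with the widest change are, or the brightest member. The members and lists were chosen with earlier results of these data known. The fit was tested on simulated data with normal noise. Changes were placed only in probe sets with a geometric mean of at least 32 over the 8 arrays, so that test does not cover genes below it. Precision is limited by the number of arrays, 2 a group. Alternatives were another set for the adjustment, an offset or floor of 32, a filter at a mean of 32, quantile normalization, an intensity trend, a replicate block, the mean of a gene's probe sets, and each array left out.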

Additional observations from a re-analysis of the deposited data

How the results depend on the processing

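Of the 11 genes, 5 were called for the MSP mean against CD24hi, and 1 in each single MSP group. The count for the mean was 2 with signals raised to a floor of 32, 3 with a replicate block, and 0 to 2 with each array in turn left out; under the other 6 alternatives it was 4 to 5. SERPINB2, SERPINB3 and SERPINB13 lost their call at the floor, and SERPINB3 (adjusted p = 0.0747) and SERPINB13 (0.0795) with the replicate block, as did F2R (0.0853), CTSC (0.0524) and CTSV (0.0521). With the adjustment made over 1 probe set per named gene, MSP1, MSP2 and MSP3 counted 5, 4 and 5 genes. With an offset of 32 they counted 3, 3 and 4, and with a filter at a mean signal of 32 or with an intensity trend 4 each. With a floor of 32 and with a replicate block each counted 0. Quantile normalization left 0 in MSP1 and 1 in each of MSP2 and MSP3, and the mean of a gene's probe sets gave 2 in MSP2 and 1 in the others. Leaving out 1 array gave 0 in MSP1, 0 to 1 in MSP2 and 0 in MSP3; such a fit has 1 residual degree of freedom fewer and assumes that the lone array varies like the other groups. The comparisons among MSP groups had 0 of the 11 genes called under every alternative run. The sign of 1 gene turned, SERPINB8, at -0.21 without CD24hi replicate b against 0.35 with all arrays and 0.92 without CD24hi replicate a. The cause of these changes was not tested. A filter on the mean signal left SERPINB3, SERPINB6, SERPINB8, SERPINB11 and SERPINB12 without a value. The letters a and b were not taken to pair the arrays: over 23120 probe sets with a mean of at least 32, the correlation of array a minus array b was -0.36 to -0.265 between CD24hi and the MSP groups and 0.552 to 0.702 among the MSP groups, and the labels do not say what a letter stands for. The MSP groups thus shared a letter difference, which the main fit left out. The replicate block fitted a common letter effect for all groups, CD24hi included, and pairing within the MSP groups alone was not tested. Signals under 32 limit what can be said of SERPINB6, SERPINB8, SERPINB11 and SERPINB12, and of the MSP levels of SERPINB2 and SERPINB13.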
